A study of Mus musculus with 6 samples.

Results

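The 10 genes described here are components of Notch signalling: the ligands Jag1, Dll1 and Dll4, the receptors Notch1, Notch2 and Notch4, and the target genes Hes1, Hey1, Hey2 and Heyl. They were taken by name, and all their probe sets with a single gene symbol in the array's annotation were used. A probe set is the group of short probes on an Affymetrix array that together report a transcript. The genes had 16 of the 30618 probe sets, and they are 10 of the 13817 genes with a probe set of their own. Notch1, Notch4, Jag1, Dll4 and Heyl had several probe sets and the other 5 genes had 1 each.

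In Notch signalling, a ligand on the surface of a cell binds a receptor on its neighbour. The bound receptor is cleaved, first by ADAM proteases and then by γ-secretase, and its released intracellular domain joins the DNA-binding protein RBPJ and a Mastermind coactivator to switch on target genes, among them the repressors of the Hes and Hey families. Notch signals are known to restrain the maturation of chondrocytes and osteoblasts, to guide the branching and arterial fate of endothelium, and to maintain the smooth muscle and pericyte coat of vessels.

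RNA came from the upper tibia of male C57Bl/6J mice aged 6 weeks, from a piece with the joint cartilage and the bone beneath it, and the tissue of 1 joint of 1 mouse was measured on each of 6 Affymetrix mouse arrays. This piece also held marrow and upper growth plate. The 3 wild-type mice carried the titles 6-1, 8-1 and 9-1. The 3 mice labelled as Frzb knockouts carried the titles 6, 14 and 17. The knockout removes Frzb, a secreted WNT antagonist, in all tissues, and the line had been backcrossed into C57Bl/6J. The study asked how loss of Frzb alters the transcriptome of this joint tissue.

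The study set aside a mouse labelled Frzb-/- whose array lay with the wild-type arrays and which re-genotyping found heterozygous, and it did not give that animal's number. Here titles 14 and 17 were compared with the 3 wild-type mice and title 6 is shown apart. That choice rests on measured values, not on the labels, so results with all 3 labelled mice are given as well. Over all probe sets, title 6 correlated with each wild-type mouse at a Pearson's r between 0.983 and 0.991, and with titles 14 and 17 at 0.940 to 0.957. The 3 wild-type arrays correlated with each other at 0.987 to 0.993, and titles 14 and 17 with each other at 0.988. However, Frzb itself was low in every mouse labelled as a knockout. Its brightest probe set stood at 10.02, 10.79 and 10.16 in wild-type 6-1, 8-1 and 9-1, at 7.02 and 6.42 in titles 14 and 17, and at 6.93 in title 6. These are the deposited values, which the authors computed by robust multiarray averaging (RMA) and which are on the log2 scale, so that 1 unit is a doubling. The log2 fold change of Frzb in titles 14 and 17 over wild-type was -3.61 (SE 0.27, limma adjusted p = 0.000994). The low Frzb value of title 6 lies with those of titles 14 and 17, while its array as a whole lies with the wild-type arrays.

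The tissue label held in its markers. The cartilage collagen gene Col2a1 lay between 14.56 and 14.74 in the 6 arrays and the bone collagen gene Col1a1 between 14.53 and 14.87. None of the 10 chondrocyte markers and 1 of the 7 measured osteoblast and osteocyte markers (Sost, lower) passed the thresholds below. Markers of marrow cells were lower in titles 14 and 17: 8 of 8 neutrophil, 6 of 6 erythroid, 5 of 7 B cell and 7 of 7 cell division genes fell. Of 5 T and NK cell genes 1 fell and 4 did not pass. Of 10 fibroblast and synovium markers 6 rose, while 0 of 7 osteoclast and 0 of 8 macrophage markers passed. Beside these counts, 3.03% of all genes passed as higher and 6.02% as lower. In a piece of mixed tissue, fewer cells of a type and less RNA per cell cannot be told apart, which holds for every value given here.

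None of the 10 Notch genes passed the thresholds of the study's methods, which ask for p below 0.01 after Benjamini-Hochberg correction and for a log2 fold change beyond 1 in either direction, in the comparison of titles 14 and 17 with wild-type by limma. Limma fits a linear model to each probe set and moderates its spread by that of all the others. Of the 13817 genes, 3.03% passed as higher and 6.02% as lower. With the fold threshold dropped and the adjusted p raised to 0.05, Jag1, Dll4 and Hey2 were higher and no member was lower, against 13.8% of all genes higher and 15.3% lower. At an unadjusted p under 0.05 there were 5 of the 10, against 41.6% of all genes. The 10 log2 fold changes ran from -0.27 (Notch1) to 0.89 (Jag1) with a median of 0.39, and the median over all genes was 0.04. The means of 9 members were higher in titles 14 and 17. In 7 members both values of titles 14 and 17 lay above all 3 wild-type values, against 31.0% of all genes, and in 0 they lay below all of them, against 28.1%. The members had been chosen with earlier results of these data known, so these counts beside all genes are a description and not an independent test. With 3 and 2 arrays the intervals are wide, and those of Jag1, Dll4, Notch4 and Heyl reached a log2 fold change of 1 or more.

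**Figure D1:**
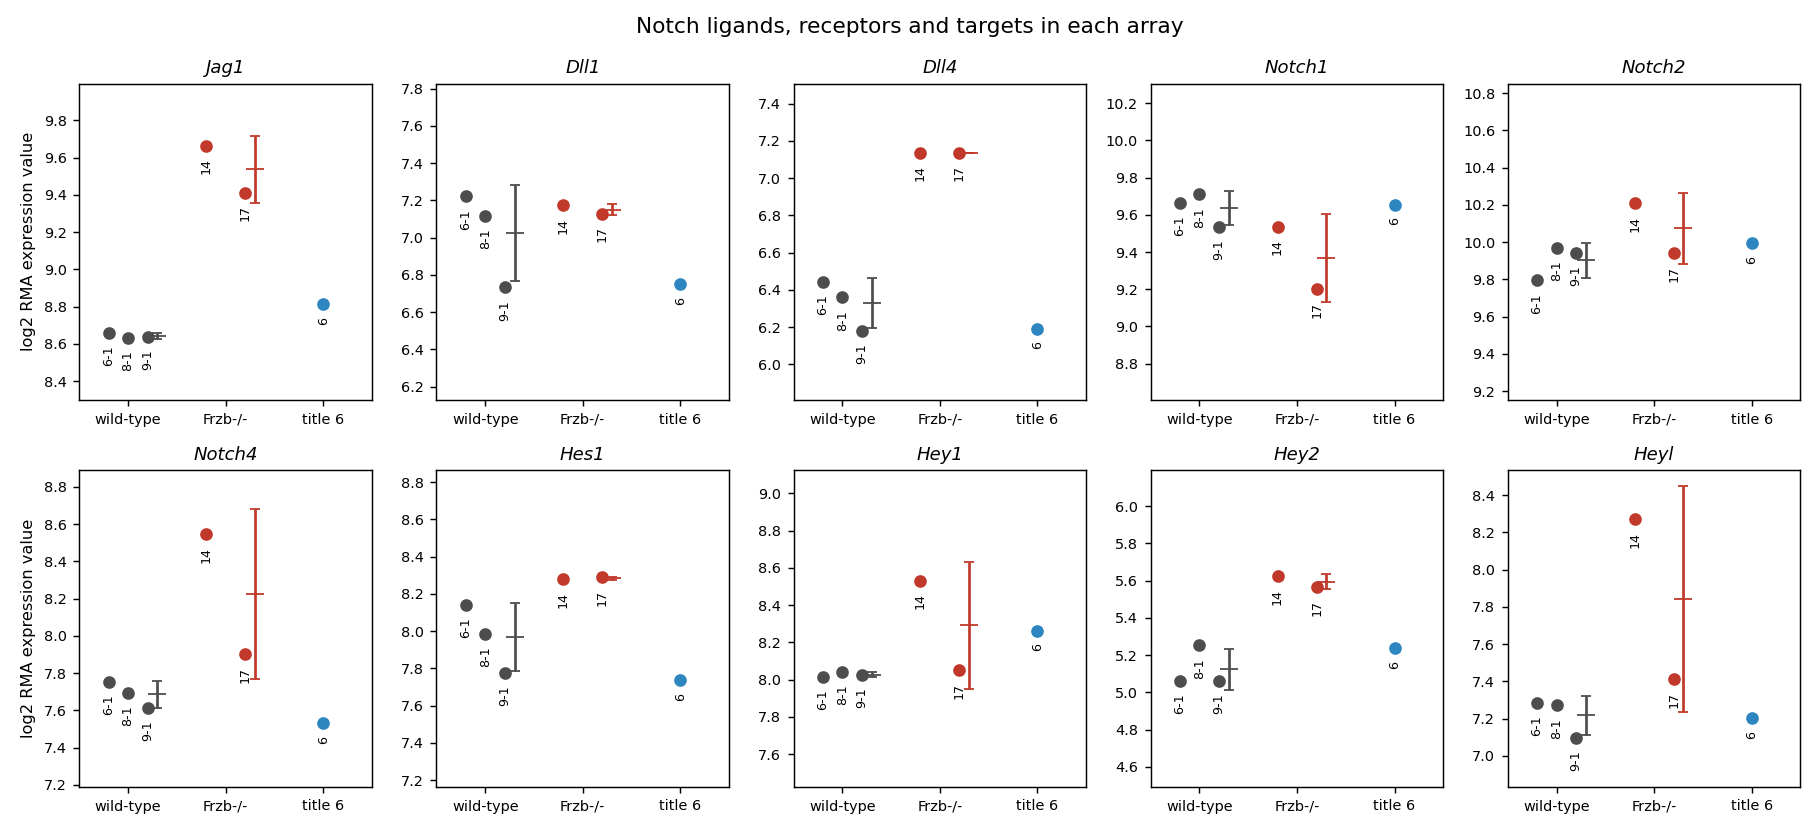
Log2 RMA expression value (y axis, one panel per gene, its own range, at the gene's brightest probe set) in each array, with wild-type mice in grey, Frzb-/- titles 14 and 17 in red and title 6 in blue. Crossbars give the group mean ± SD (n = 3 and n = 2). The red points of Jag1, Dll4, Hes1, Hey1, Hey2, Heyl and Notch4 lie above all grey points, and title 14 stands far above title 17 for Notch4, Hey1 and Heyl.

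Among the ligands, Jag1 and Dll4 were higher in titles 14 and 17 at the looser threshold and Dll1 was not. Jag1 is the Jagged ligand whose loss disturbs vessel and skeletal development. Its brighter probe set stood at 8.66, 8.63 and 8.64 in the wild-type mice 6-1, 8-1 and 9-1, at 9.66 and 9.41 in titles 14 and 17, and at 8.81 in title 6. Titles 14 and 17 lay well above the wild-type mice, which hardly differed from each other, and title 6 lay just above them. The means were 8.64 ± 0.02 (SD, n = 3) and 9.54 ± 0.18 (SD, n = 2), a log2 fold change of 0.89 (SE 0.13, 95% interval 0.59 to 1.19, limma adjusted p = 0.00363) or 1.86-fold. The dimmer probe set of Jag1 read 5.45, 5.23 and 4.77 in wild-type, 5.84 and 6.43 in titles 14 and 17 and 5.59 in title 6, with a log2 fold change of 0.98 (SE 0.25, adjusted p = 0.028). Both probe sets thus placed titles 14 and 17 above every wild-type mouse.

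Dll4 is the Delta-like ligand of endothelial tip cells and arteries. Its brighter probe set stood at 6.44, 6.36 and 6.18 in wild-type, at 7.14 in both titles 14 and 17, and at 6.19 in title 6. Title 6 lay within the wild-type range, while titles 14 and 17 lay above it with the same deposited value, so that their SD was 0. Their mean exceeded that of wild-type by a log2 fold change of 0.81 (SE 0.13, 95% interval 0.51 to 1.11, limma adjusted p = 0.00534) or 1.75-fold. The other probe set of Dll4 read 5.86, 5.54 and 5.71 in wild-type, 6.09 and 5.97 in titles 14 and 17 and 5.64 in title 6, a log2 fold change of 0.33 (SE 0.14, adjusted p = 0.129), so its groups did not overlap but it did not pass the looser threshold.

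Dll1, a Delta-like ligand with known roles in segmentation of the embryo and in marrow and spleen lymphocytes, did not separate the groups. It stood at 7.22, 7.12 and 6.73 in wild-type, at 7.17 and 7.13 in titles 14 and 17, and at 6.75 in title 6. The wild-type values spanned both of those in titles 14 and 17. The log2 fold change was 0.13 (SE 0.17, 95% interval -0.27 to 0.52, limma adjusted p = 0.614), and it turned to -0.019 without wild-type 9-1.

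The bases before the transcription starts of the genes that passed the looser threshold are shown because RBPJ, the factor through which Notch acts, is known to bind DNA at the core TGGGAA. They are the 250 bases upstream of the start in RefSeq's annotation of GRCm38.p6, written 5′ to 3′ on the strand of the gene, in lower case with any TGGGAA on either strand in capitals. Of the 10 genes, 7 had entries in the promoter table used, with 8 promoters in all. The target genes Hes1, Hey1 and Heyl had no entry and were not searched. Jag1 lies at chr2:137116521-137116770 on the minus strand, Dll4 at chr2:119325534-119325783 on the plus strand and Hey2 at chr10:30842784-30843033 on the minus strand.
Jag1: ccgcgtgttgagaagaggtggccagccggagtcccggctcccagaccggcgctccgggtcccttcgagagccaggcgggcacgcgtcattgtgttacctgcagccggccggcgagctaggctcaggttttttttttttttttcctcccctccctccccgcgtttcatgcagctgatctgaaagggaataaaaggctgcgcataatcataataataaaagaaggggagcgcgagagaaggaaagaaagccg
Dll4: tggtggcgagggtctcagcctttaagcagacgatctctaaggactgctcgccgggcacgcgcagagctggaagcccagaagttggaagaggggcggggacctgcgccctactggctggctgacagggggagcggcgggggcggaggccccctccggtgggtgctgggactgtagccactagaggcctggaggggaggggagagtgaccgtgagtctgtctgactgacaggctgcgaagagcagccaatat
Hey2: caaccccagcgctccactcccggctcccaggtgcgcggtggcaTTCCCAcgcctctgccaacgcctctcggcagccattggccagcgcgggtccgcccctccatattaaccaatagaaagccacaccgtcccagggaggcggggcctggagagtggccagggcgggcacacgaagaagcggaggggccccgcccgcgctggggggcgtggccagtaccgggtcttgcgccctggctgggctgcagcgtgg
The search covered TGGGAA and the longer GTGGGAA, which contains it, on both strands. The capitals in Hey2 are the reverse complement of the core, 207 to 202 bases before the start, and this match also holds the longer form. It was the single match among the 8 promoters of the Notch genes. Of 32851 mouse promoters of the same length, 21.6% held TGGGAA and 5.42% held GTGGGAA. A match to the core is thus frequent, and one to the longer form, as in Hey2, is less so. The match in Hey2 describes letters in this window and not binding.

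Of the receptors Notch1, Notch2 and Notch4, none passed the looser threshold, and Notch4 had the highest fold change of these 3. Notch4 is the receptor found mainly in endothelium. Its brighter probe set stood at 7.75, 7.69 and 7.61 in wild-type, at 8.55 and 7.90 in titles 14 and 17, and at 7.53 in title 6. Titles 14 and 17 both lay above wild-type, but they were farther from each other than title 17 was from the wild-type mice. The log2 fold change was 0.54 (SE 0.20, 95% interval 0.07 to 1.00, limma adjusted p = 0.0872). It was 0.21 without title 14 and 0.86 without title 17 (adjusted p = 0.333 and 0.0202). The dimmer probe set of Notch4 read 4.71, 4.46 and 4.60 in wild-type, 4.65 and 4.88 in titles 14 and 17 and 4.39 in title 6, a log2 fold change of 0.17 (adjusted p = 0.39) with overlapping groups.

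Notch1, the receptor that directs T cell fate and arterial endothelium, was the 1 member with a lower mean. It stood at 9.67, 9.71 and 9.54 in wild-type, at 9.54 and 9.20 in titles 14 and 17, and at 9.65 in title 6. Title 14 met the lowest wild-type mouse and title 17 lay below all of them. For Notch1 the log2 fold change was -0.27 (SE 0.14, 95% interval -0.61 to 0.07, limma adjusted p = 0.215), and at the other probe set it was -0.10 (adjusted p = 0.587). Leaving out title 17 brought it to -0.10 and leaving out title 14 to -0.44.

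Notch2, the receptor mutated in a human disorder of bone resorption, stood at 9.79, 9.97 and 9.94 in wild-type, at 10.21 and 9.94 in titles 14 and 17, and at 9.995 in title 6. Title 14 was the highest array and title 17 lay inside the wild-type range. Its log2 fold change was 0.17 (SE 0.14, 95% interval -0.15 to 0.50, limma adjusted p = 0.392), and without title 14 it was 0.04. For Notch1 and Notch2 the intervals ended below a log2 change of 1 in either direction.

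**Figure D2:**
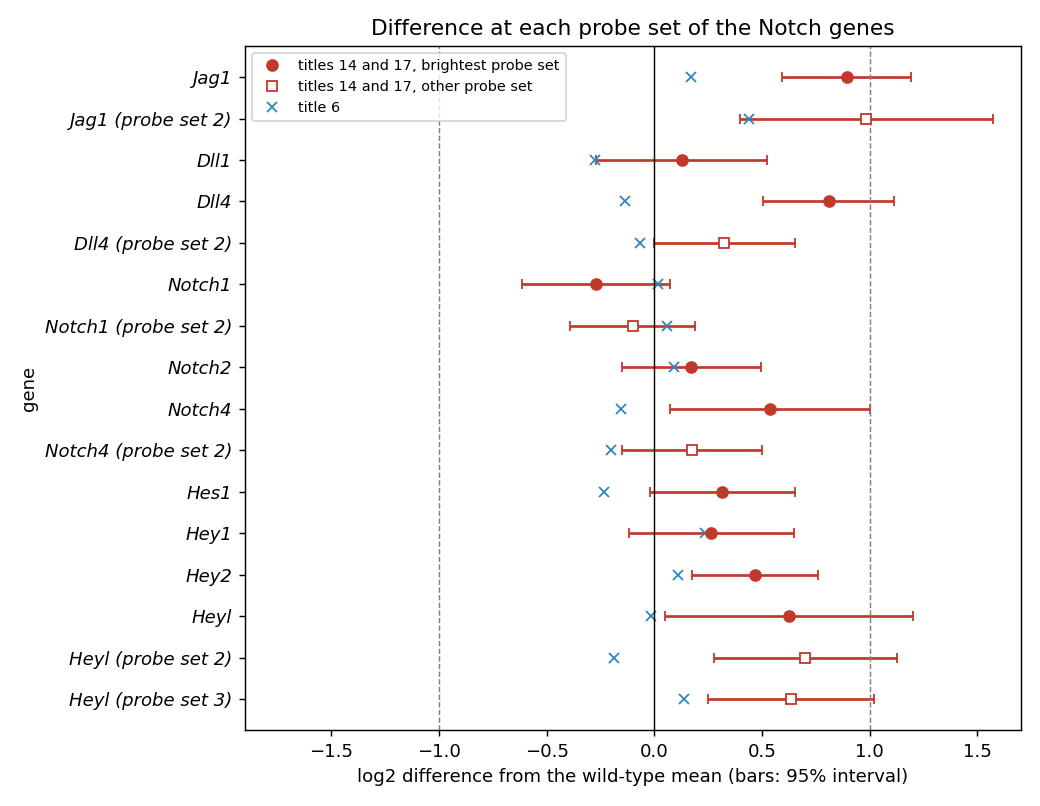
Log2 difference from the wild-type mean (x axis) at each of the 16 probe sets of the 10 Notch genes (y axis). Red points are titles 14 and 17 with the 95% limma interval, filled at the brightest probe set and open at the others, blue crosses are title 6, and dashed lines mark the fold threshold at -1 and 1. All red points lie between -0.27 and 0.98, inside the dashed lines, and 14 of 16 lie to the right of 0.

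Among the target genes, Hey2 was higher at the looser threshold, while Hes1, Hey1 and the brightest probe set of Heyl were not. Hey2 encodes a repressor with known roles in arterial fate and the heart. It stood at 5.06, 5.25 and 5.06 in wild-type, at 5.62 and 5.57 in titles 14 and 17, and at 5.24 in title 6. Titles 14 and 17 lay close together above all wild-type mice, and title 6 lay within the wild-type range. The means were 5.13 ± 0.11 (SD, n = 3) and 5.59 ± 0.04 (SD, n = 2), a log2 fold change of 0.47 (SE 0.12, 95% interval 0.18 to 0.76, limma adjusted p = 0.0319) or 1.38-fold. The probe set of Hey2 is dim: its mean lay below 7.39, the median over all probe sets, as did those of Dll1 and Dll4. Without any 1 of the 5 arrays, its adjusted p was above 0.05, with log2 fold changes of 0.44 to 0.53.

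Heyl, a Hey-family repressor known from vascular smooth muscle, had the largest gap between titles 14 and 17. Its brightest probe set stood at 7.28, 7.27 and 7.09 in wild-type, at 8.27 and 7.41 in titles 14 and 17, and at 7.20 in title 6. Title 14 was 0.859 above title 17, which in turn lay just above the highest wild-type mouse. The groups differed by a log2 fold change of 0.62 (SE 0.24, 95% interval 0.05 to 1.202, limma adjusted p = 0.104), 0.20 without title 14 and 1.05 without title 17 (adjusted p = 0.405 and 0.0151). The other probe sets of Heyl placed titles 14 and 17 above wild-type as well and passed the looser threshold. The first of these read 7.09, 6.94 and 6.84 in wild-type, 7.92 and 7.3996 in titles 14 and 17 and 6.77 in title 6 (log2 fold change 0.70, adjusted p = 0.0293). The second read 5.94, 6.11 and 6.14 in wild-type, 6.92 and 6.48 in titles 14 and 17 and 6.204 in title 6 (0.63, adjusted p = 0.029). Title 14 was the highest array at all 3.

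Hes1, the Hes-family repressor that answers Notch in many tissues, stood at 8.14, 7.98 and 7.78 in wild-type, at 8.28 and 8.29 in titles 14 and 17, and at 7.74 in title 6. Titles 14 and 17 were almost equal and lay above the wild-type mice, which were themselves more widely spread, and title 6 was the lowest array. This gave a log2 fold change of 0.32 (SE 0.14, 95% interval -0.02 to 0.65, limma adjusted p = 0.147).

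Hey1, a repressor known from endothelium and from osteoblasts, stood at 8.02, 8.04 and 8.02 in wild-type, at 8.53 and 8.05 in titles 14 and 17, and at 8.26 in title 6. Title 17 lay next to the highest wild-type mouse, and title 14 and then title 6 were the highest arrays. The log2 fold change was 0.26 (SE 0.16, 95% interval -0.12 to 0.65, limma adjusted p = 0.274) and 0.02 without title 14. In 8 of the 10 Notch genes title 14 had the higher value of the pair, as it had in 59.1% of all genes.

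Over the 16 probe sets, 0 passed the study's thresholds by limma (2.34% of all probe sets passed as higher and 5.09% as lower), 8 had an unadjusted p under 0.05 (39.2% of all probe sets did) and 6 were higher and 0 lower at the looser threshold, against 11.7% and 14.8% of all probe sets. In 11 of them titles 14 and 17 lay above all wild-type arrays, against 27.5%. The 6 comprised both probe sets of Jag1, 1 of Dll4, that of Hey2 and the dimmer pair of Heyl.

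Title 6 differed little from wild-type in the Notch genes. Its differences from the wild-type mean ran from -0.27 to 0.24 over the 10 genes, with the smallest limma adjusted p at 0.839, in a fit that gives this single array the spread of the other groups. It lay within the wild-type range for 5 genes, above it for 3 and below it for 2. With title 6 counted among the Frzb-/- mice, so that all 3 labelled mice were compared with 3 wild-type mice, all 10 log2 fold changes lay nearer to 0. Jag1 then stood at 0.65 (limma adjusted p = 0.428), Dll4 at 0.49 (0.461), Hey2 at 0.35 (0.428) and Heyl at 0.41 (0.525). In that comparison no member passed the looser threshold and 1 had an unadjusted p under 0.05, and 0 of the 30618 probe sets passed the study's thresholds, with 3534 at an unadjusted p under 0.05. Every statement above that Jag1, Dll4 and Hey2 passed the looser threshold therefore rests on setting title 6 apart. At both probe sets of Jag1, title 6 itself lay above all 3 wild-type mice.

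The other genes of the pathway were taken from lists by role. Of 52 genes listed 44 had a probe set. The thresholds of the study passed 1 of the 44 as higher and 0 as lower, against 3.03% and 6.02% of all genes. At the looser threshold 6 were higher and 4 lower, against 13.8% and 15.3% of all genes. The median log2 fold change of the 44 was 0.13. The 1 that passed was Bhlhe40, a repressor that is listed among Notch targets and is also known as a part of the circadian clock. It stood at 9.48, 9.40 and 9.14 in wild-type, at 10.52 and 10.46 in titles 14 and 17, and at 9.49 in title 6. Bhlhe40 rose by a log2 fold change of 1.15 (SE 0.14, limma adjusted p = 0.00224), and its adjusted p was 0.0128 without wild-type 8-1, 0.0135 without title 14 and 0.0167 without title 17. Of the other targets, Nrarp, a feedback inhibitor of Notch, stood at 0.53 (adjusted p = 0.0504) and at 0.69 at its dimmer probe set (adjusted p = 0.00702), Snai2 at 0.49 (adjusted p = 0.109, and 0.58 with adjusted p = 0.025 at its other probe set) and Hes6 at -0.48 (adjusted p = 0.0545).

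Notch3, the receptor of vascular smooth muscle and pericytes, came closest to the fold threshold among the other receptors and ligands. It stood at 9.34, 9.29 and 9.28 in wild-type, at 10.43 and 10.16 in titles 14 and 17, and at 9.14 in title 6. The 3 wild-type mice were close together and title 6 lay below them. Notch3 had a log2 fold change of 0.99 (SE 0.13, limma adjusted p = 0.00283), and at the other probe set it was 0.76 (adjusted p = 0.0173). Dlk1, a Delta-like protein without the usual receptor-binding domain that marks immature mesenchymal cells, stood at 0.87 (adjusted p = 0.00845), and the ligand Jag2 at 0.37 (adjusted p = 0.0652) and at 0.60 at its other probe set (adjusted p = 0.0217).

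Inside the signal-receiving cell, the gene of RBPJ stood at 9.43, 9.56 and 9.43 in wild-type, at 10.17 and 9.9995 in titles 14 and 17, and at 9.41 in title 6. Its log2 fold change was 0.61 (SE 0.12, limma adjusted p = 0.0125), and 0.70 and 0.50 at its other probe sets. The median of the 9 measured genes of the transcription complex was nevertheless -0.24, with Cir1, a corepressor of RBPJ, at -0.54 (adjusted p = 0.0251) and the acetyltransferase gene Ep300 at -0.45 (adjusted p = 0.0487). Among the 8 measured genes of receptor cleavage, the protease gene Adam10 stood at -0.65 (adjusted p = 0.0153) and the γ-secretase subunit gene Aph1a at 0.46 (adjusted p = 0.0252), with a median of 0.11 over the list. Adam10 stood at -0.17 and 0.27 at its other probe sets, which thus disagreed in sign. Of those of Aph1a, 1 stood at 0.52 (adjusted p = 0.0236) and the other at 0.08 (adjusted p = 0.694).

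Of the 5 genes that glycosylate the receptor, Lfng, a fringe enzyme that shifts the choice of ligand, stood at -0.50 (limma adjusted p = 0.0311) and its relative Mfng at 0.43 (adjusted p = 0.0675). Of the 12 genes of ligand and receptor trafficking, Numbl, a relative of the Notch inhibitor Numb, stood at 0.56 (adjusted p = 0.0147) and Mib1, the ligase that prepares ligands for signalling, at 0.31 (adjusted p = 0.148, and 0.05 and 0.04 at its dimmer probe sets). The medians of these lists were 0.19 and 0.14. Those of the other receptors and ligands and of the other targets were 0.37 and 0.49, over 5 genes each.

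**Figure D3:**
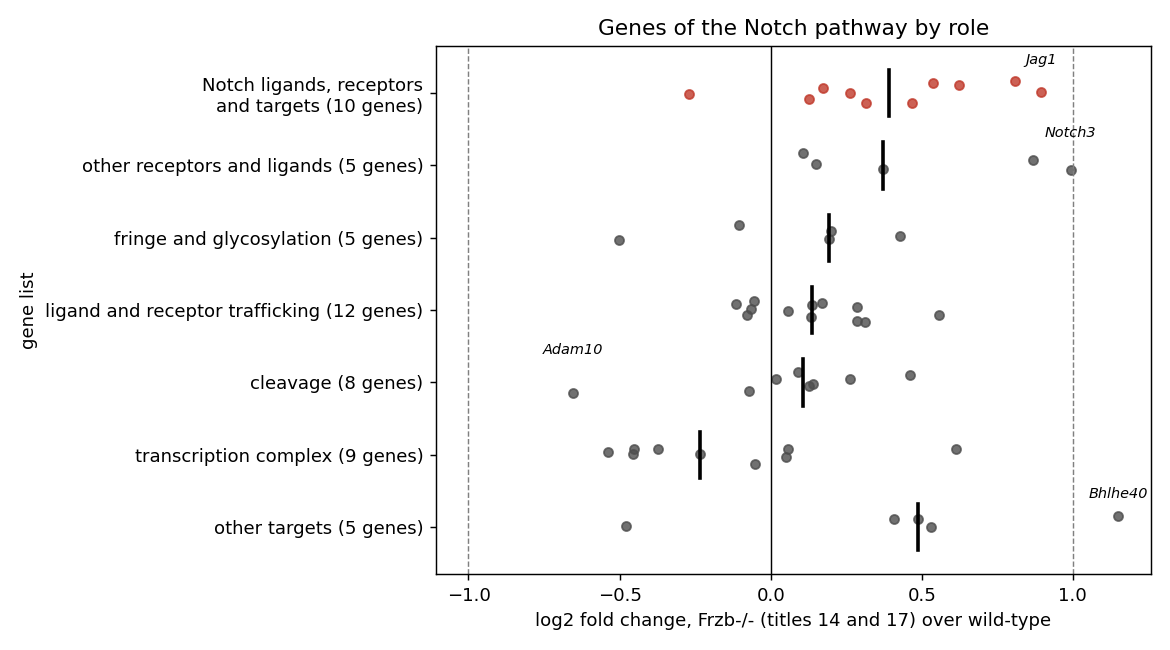
Log2 fold change of titles 14 and 17 over wild-type (x axis) for each gene with a probe set, by role in the pathway (y axis), with the 10 Notch genes in red, the others in grey and the median of each list as a black bar. Dashed lines mark -1 and 1. Bhlhe40 at 1.15 is the 1 gene beyond them, and the transcription complex is the 1 list with a median below 0 (-0.24).

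Some markers of vessel cells also differed between the groups. Of 12 smooth muscle and pericyte markers 3 rose (Myh11 by 1.79, Tagln by 1.44 and Acta2 by 1.24 on the log2 scale) and 9 were higher at the looser threshold. Their summed linear level was 14527 to 19583 in the wild-type mice, 29590 to 29645 in titles 14 and 17 and 14132 in title 6. Of 16 endothelial markers 1 rose (Sox17, by 1.48) and 1 fell (Stab2, a receptor of marrow sinusoids, with a log2 fold change of -1.95). At the looser threshold 8 were higher and 2 lower. Of all genes, 3.03% were higher and 6.02% lower at the study's thresholds, and 13.8% and 15.3% at the looser one. The summed level of the endothelial markers was 6903 to 8292 in wild-type, 9340 to 10632 in titles 14 and 17 and 7364 in title 6. RMA values have no true 0, and the lowest value of any marker in both lists was 5.83 (Cnn1 in title 6). The summed level of the 10 fibroblast and synovium markers was 49642 to 59287 in wild-type, 102097 to 105422 in titles 14 and 17 and 66354 in title 6. The part of these cells in the differences of the Notch genes was not tested.

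To set both side by side, the mean log2 value of a marker list was subtracted from each Notch gene in the same array, a measure chosen after the data had been seen. Relative to the 16 endothelial markers, Jag1 and Dll4 lay above every wild-type mouse in titles 14 and 17, by 0.49 and 0.41 in the means. Notch1 and Dll1 then lay below all wild-type mice, by -0.67 and -0.28. The values of Notch2, Notch4, Hes1, Hey1, Hey2 and Heyl overlapped, with differences between -0.23 and 0.22. The mean of this marker list was higher by 0.40 in titles 14 and 17, and its median log2 fold change was 0.58. Of its 16 markers 14 had higher means, while Stab2 (-1.95) and Vwf (-0.55) were lower and drew the list mean down. A list without them was not tried. Relative to the 12 smooth muscle and pericyte markers, no Notch gene lay above the wild-type mice. Jag1 and Dll4 then stood at -0.01 and -0.10, and Notch4 and Heyl at -0.37 and -0.28, all with overlapping groups. Notch1, Notch2, Dll1, Hes1, Hey1 and Hey2 lay below all wild-type mice, by -1.18 for Notch1 to -0.44 for Hey2. The sign of the difference thus depended on the marker list for Jag1, Dll4, Notch4, Hey2 and Heyl. Notch1, Notch2, Dll1, Hes1 and Hey1 had lower means in titles 14 and 17 relative to both lists. The fibroblast and synovium list, whose mean log2 value was higher by 1.24 in titles 14 and 17, was not subtracted. These differences are not expression levels.

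**Figure D4:**
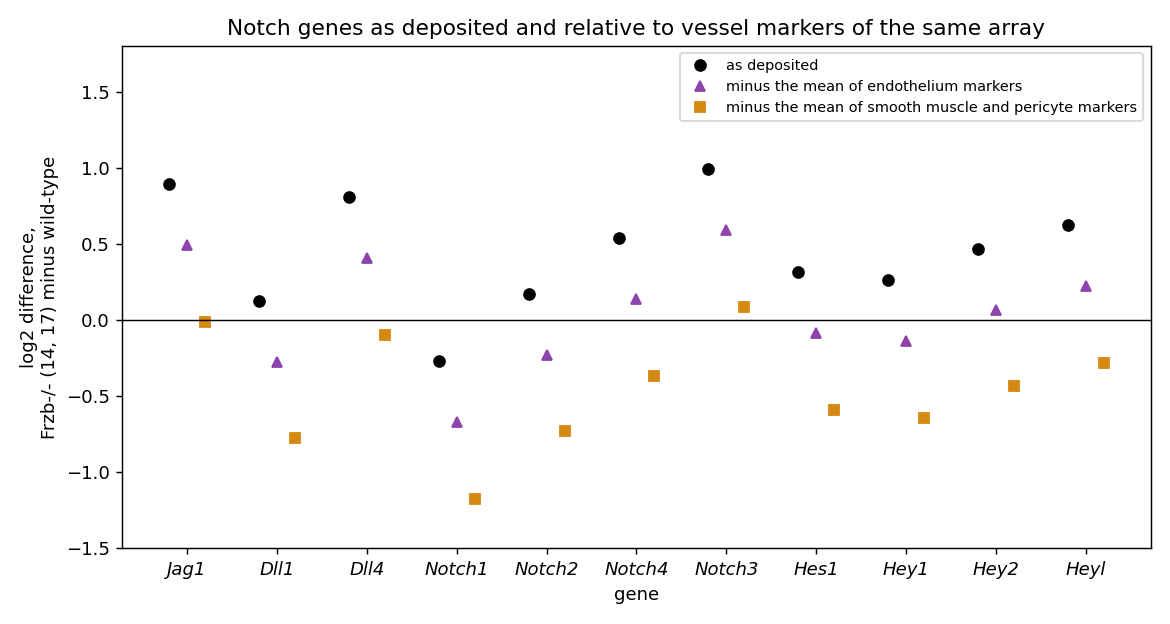
Log2 difference of titles 14 and 17 minus wild-type (y axis) for the 10 Notch genes and Notch3 (x axis), as deposited in black, after subtraction of the mean of the endothelium markers of the same array (purple triangles) and of the smooth muscle and pericyte markers (orange squares). Points are differences of group means without error bars. Jag1 moves from 0.89 to 0.49 and to -0.01.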

How the data were processed

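Arrays of 6 mice (3 wild-type, 3 labelled Frzb-/-) were used. The authors computed the deposited log2 values by RMA with affy 1.20.0 (background correction, quantile normalization and summary per probe set), per the labels and the study's methods. The table holds 30618 probe sets without detection calls and no read depth, so the number of arrays limits the precision. Of the probe sets, 25090 had 1 gene symbol, 677 several and 4851 none in GEO's platform annotation, and only the first were given gene names. Each gene was represented by the probe set that was brightest on average in all 6 arrays.

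Genotypes came from the labels, but setting title 6 apart from the other labelled Frzb-/- mice rests on measured values. Titles 14 and 17 were compared with wild-type by limma 3.58.1 in R 4.3.3 (lmFit, eBayes, two-sided) over all probe sets, with Benjamini-Hochberg adjustment, and called below an adjusted p of 0.01 where the log2 fold change was beyond 1 in either direction, or more loosely below 0.05 with any fold. Counts per list were read beside all 13817 genes. The p-values measure the spread between mice, of which the compared groups had 3 and 2. Title 6 was fitted as a group of its own. On simulated data with 30618 probe sets and 3 against 2 arrays, 98 of 100 shifts of 1.5 and 100 of 100 shifts of 2.5 were recovered, with 2 false calls. Both shifts exceed the fold threshold and every change of the Notch genes. The simulation therefore gives no recovery rate for changes of their size.

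By the rule for named genes, these are the 10 Notch genes, Frzb, and of each list those called and the 2 with the largest change. Jag2, Ep300, Snai2, Hes6, Col2a1, Col1a1 and Cnn1 were added after their values were seen, and of the marker lists other than those of vessel cells, Sost alone is named under the rule, with the rest given as counts and, for fibroblasts, a summed level. The members and lists were chosen with earlier results of these data known. Promoters came from RefSeq (GRCm38.p6). Alternatives were title 6 among the Frzb-/- mice, leaving out each array, probe sets above the median, cyclic loess, trended and robust moderation, no moderation, the looser threshold and averaging all probe sets of a gene. Tables and figures used Python 3.11.15, numpy 2.4.6, pandas 2.3.3 and matplotlib 3.10.9.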

Additional observations from a re-analysis of the deposited data

How the results depend on the processing

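No Notch gene passed the study's thresholds by limma under any alternative tried, at its brightest probe set, over all its probe sets or as the mean over them. With title 6 among the Frzb-/- mice, and also without moderation, 0 of the 30618 probe sets passed. Those settings therefore say nothing particular about the Notch genes. With an adjusted p under 0.05 and no fold threshold, 3 genes and 6 probe sets passed. Averaged over all its probe sets, Heyl passed as well (log2 fold change 0.65, limma adjusted p = 0.0319). Without 1 array at a time, Jag1 and Dll4 passed this looser threshold each time, with log2 fold changes of 0.77 to 1.02 and 0.74 to 0.87. They did not pass it with title 6 among the Frzb-/- mice, nor without moderation of the spread (adjusted p = 0.0595 and 0.0631). Dll1 changed sign, to -0.0066 with title 6 among the Frzb-/- mice, and its log2 fold change ran from -0.019 to 0.23 when 1 array was left out. No other Notch gene changed sign under these alternatives.

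The count of the other pathway genes that passed, 1 above, was 0 with title 6 among the Frzb-/- mice (5 at an unadjusted p under 0.05), 0 without moderation (13 at an unadjusted p under 0.05), 0 to 1 without 1 array, 2 with cyclic loess, where Notch3 joined Bhlhe40, and 10 at the looser threshold. In the settings with title 6 among the Frzb-/- mice and without moderation, 0 of all 30618 probe sets passed. At an unadjusted p under 0.05 there were 3534 and 9835 of them by the same fits. Frzb stood at -3.53 with title 6 among the Frzb-/- mice (adjusted p = 0.0488) and at -3.61 without moderation (adjusted p = 0.0595). The cause of these shifts was not tested.

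No paired analysis was possible because the groups compared share no replicate numbers. Dll1, Dll4 and Hey2 could not be fitted among probe sets above the median signal, since their means lie below it. Fitting title 6 as a group of its own leaves the values of titles 14 and 17 as they are by construction.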
